A study of Rattus norvegicus with 23 samples.

Results

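The 10 liver libraries of rats on the Selfox regimen differed widely in Tnfaip3, and they are described here as 6 Tnfaip3-high and 4 Tnfaip3-low livers out of 23 libraries in the series. The sets were chosen by the measured level of Tnfaip3 itself: a Selfox library at 45 CPM or more was called high, and a library below 45 CPM low. CPM is the usual depth-scaled count, computed here with TMM factors over all 23 libraries, and it sets the reads of a gene against all reads of its library. Selfox 3, 4, 5, 6, 8 and 10 were high, and Selfox 1, 2, 7 and 9 were low. Because the sets were selected on expression values of the same libraries, every difference between them below is a description and carries no test.

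All animals were Sprague Dawley rats, and RNA of whole liver was sequenced after poly(A) selection with a stranded kit. Selfox rats ate a diet enriched in selenium for 8 weeks and received 8 weekly intravenous injections of 3 drugs together: oxaliplatin (3 mg/kg), 5-FU, which is fluorouracil (25 mg/kg), and folinic acid (45 mg/kg). The 6 Control rats were untreated, and so had neither the diet nor injections. The 7 LPS rats had a surgically placed portal catheter, through which bacterial lipopolysaccharide was given at 1 mg/kg, 2 times a week for 8 weeks. The labels give no age, sex, collection time or batch, and do not state that each library came from a separate rat, so p-values measure only the spread between these libraries.

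Tnfaip3 encodes A20, a ubiquitin-editing enzyme that shuts down signalling from TNF, interleukin-1 and Toll-like receptors to the transcription factor NF-kB. Its gene is itself switched on by NF-kB, together with the inhibitor gene Nfkbia and with chemokine and adhesion genes that draw leukocytes into tissue, so its transcript is part of a negative feedback loop. In the liver these genes can be transcribed by macrophages, endothelial cells, stellate cells and hepatocytes. In libraries of whole tissue, more cells of a type and more RNA per cell cannot be told apart.

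Promoter sequences are shown here because the genes that moved with Tnfaip3 included several with matches to the kB motif, the DNA pattern that NF-kB binds. The windows are the 250 bases before the annotated start of transcription, taken from RefSeq on the GRCr8 build and read 5′ to 3′ on the strand of the gene. They are chr1:15543980-15544229 (minus strand) for Tnfaip3, chr6:78597073-78597322 (minus) for Nfkbia, chr14:17479322-17479571 (minus) for Cxcl1 and chr14:15988816-15989065 (plus) for Cxcl10. Capitals mark matches to the wide kB motif on either strand, and these 4 genes were picked after the matches had been seen.
Tnfaip3: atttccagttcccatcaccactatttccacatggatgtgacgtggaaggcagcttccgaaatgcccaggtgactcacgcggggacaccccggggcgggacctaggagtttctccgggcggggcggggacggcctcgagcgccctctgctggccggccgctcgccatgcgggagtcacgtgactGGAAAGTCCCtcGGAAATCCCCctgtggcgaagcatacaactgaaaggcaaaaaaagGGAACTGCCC
Nfkbia: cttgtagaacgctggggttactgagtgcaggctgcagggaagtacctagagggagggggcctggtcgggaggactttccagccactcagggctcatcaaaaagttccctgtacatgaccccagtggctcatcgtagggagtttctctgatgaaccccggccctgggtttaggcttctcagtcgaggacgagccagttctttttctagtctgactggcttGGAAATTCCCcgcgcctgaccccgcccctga
Cxcl1: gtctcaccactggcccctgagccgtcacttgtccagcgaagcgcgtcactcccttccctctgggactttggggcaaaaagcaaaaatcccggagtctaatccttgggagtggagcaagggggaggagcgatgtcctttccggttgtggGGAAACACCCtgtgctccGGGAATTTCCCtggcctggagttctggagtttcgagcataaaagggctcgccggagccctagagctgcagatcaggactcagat
Cxcl10: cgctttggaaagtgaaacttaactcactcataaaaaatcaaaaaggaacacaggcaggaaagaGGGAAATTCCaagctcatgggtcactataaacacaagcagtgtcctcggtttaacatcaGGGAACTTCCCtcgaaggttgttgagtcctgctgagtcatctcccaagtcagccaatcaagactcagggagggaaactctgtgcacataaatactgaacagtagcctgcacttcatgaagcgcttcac

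The wide kB motif was the letters GGG, then 3 bases of any kind, then TTCC, and the narrow kB motif, a subset of it, was GGG, then 2 bases of any kind, then TTTCC. In these windows Tnfaip3 and Cxcl10 had 3 wide matches each, Cxcl1 had 3 and Nfkbia had 1. Some of the matches overlap: in Cxcl1 a match from base -84 to -75 overlaps one from -83 to -74 on the other strand, and in Cxcl10 the matches from -128 to -119 and from -127 to -118 do the same.

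Tnfaip3, the gene that defined the sets, lay at 500.3 CPM in Selfox 8, 485.7 in Selfox 5, 352.8 in Selfox 3, 187.8 in Selfox 4, 149.9 in Selfox 10 and 61.7 in Selfox 6. In the low livers it lay at 25.7 CPM in Selfox 1, 17.1 in Selfox 9, 16.6 in Selfox 7 and 12.9 in Selfox 2. Selfox 6 was the library just inside the threshold and Selfox 1 the library just outside it. Control libraries ranged from 7.38 to 17.9 CPM and LPS libraries from 15.1 to 19.3 CPM, so 3 of the 4 low livers fell inside the Control range and all 6 high livers lay above every Control and LPS library.

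**Figure D1:**
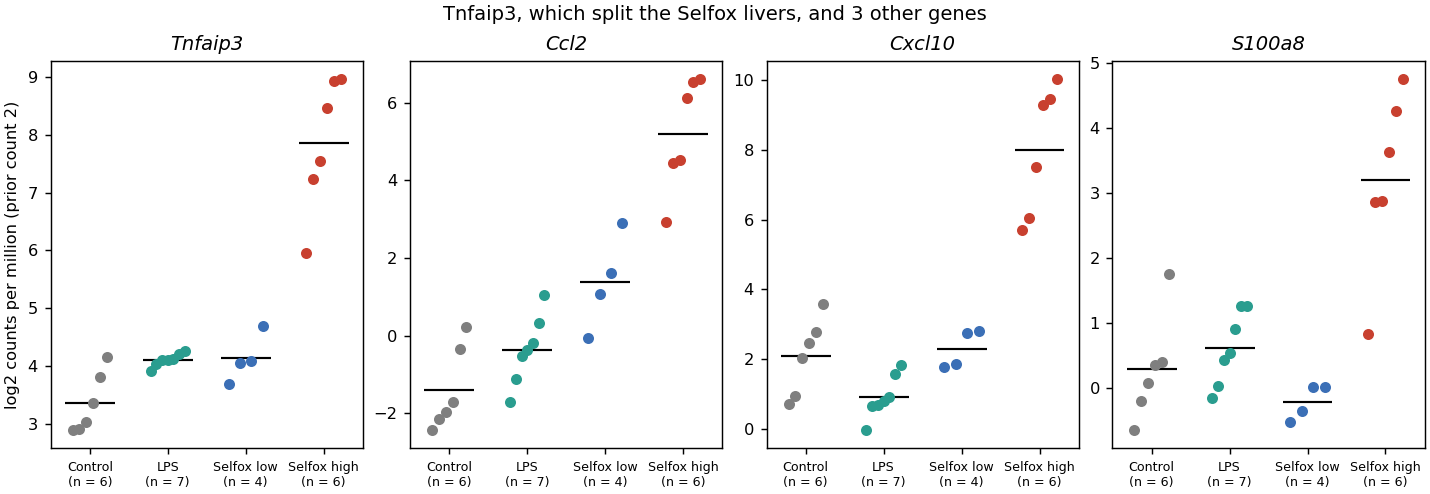
Log2 CPM (prior count 2) of Tnfaip3, Ccl2, Cxcl10 and S100a8 in all 23 libraries; each point is a library and each line a group mean. Tnfaip3 chose the high and low sets, and for the other 3 genes all 6 high livers also lie above all 4 low livers.

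A gene was called apart when all 6 high libraries lay above, or all below, all 4 low libraries and the means of log2 CPM (prior count 2) differed by at least 1, a 2-fold difference. By that rule 133 of 15078 genes other than Tnfaip3 were higher in the high livers (0.882%) and 38 were lower (0.252%). The median difference over all genes was -0.00395 on the log2 scale. Of the 133 higher genes, 58 differed by at least 2 and 26 by at least 3 on the log2 scale. Genes that did not overlap at any size of difference numbered 312 higher and 242 lower, so higher genes outnumbered lower ones by more when the size of the difference was required. Without Selfox 6 the count of higher genes was 221, and the count of lower genes was 62, 67, 59 or 76 without Selfox 1, 2, 7 or 10. The rule of no overlap is easier to meet with fewer libraries. With Selfox 1, the low liver nearest the threshold, counted as high, 63 genes were higher.

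**Figure D2:**
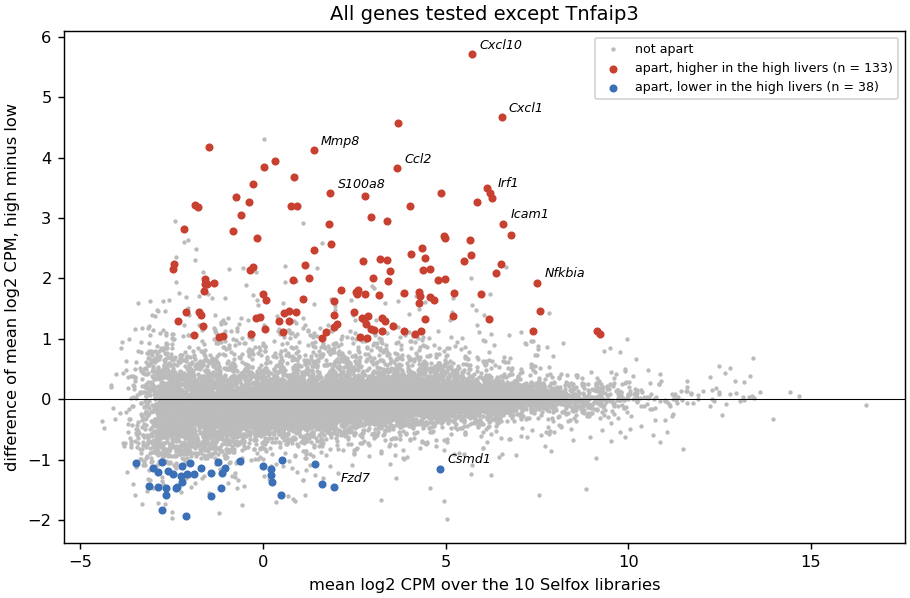
Difference of mean log2 CPM, high minus low, against mean log2 CPM over the 10 Selfox libraries, for 15078 genes. Red points are the 133 genes apart and higher in the high livers, blue points the 38 apart and lower, and the red points reach 5.71 where the blue ones stay above -2.

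NF-kB subunits and feedback genes were the group with the most members apart. Of 27 measured members other than Tnfaip3, 15 were apart and higher in the high livers, against 0.882% of all genes. In the other direction 0 were apart, which is near the share of all genes (0.252%). The median difference of the list was 1.34 on the log2 scale. All 27 differences were positive, against 7408 of 15078 over all genes. They ran from 0.05 for the deubiquitinase gene Cyld to 3.67 for Tnip3, which encodes a partner protein of A20. With Selfox 1 counted as high, 7 of the 27 were apart.

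Nfkbia encodes the inhibitor that holds NF-kB in the cytoplasm and is rebuilt after each round of activation. It lay at 493.1 CPM in Selfox 3, 469.8 in Selfox 5, 396.1 in Selfox 10, 370.9 in Selfox 8, 199 in Selfox 4 and 129.9 in Selfox 6. The low livers lay at 105.2 (Selfox 1), 90.0 (Selfox 9), 69.2 (Selfox 2) and 66.5 CPM (Selfox 7). The sets did not overlap, with a difference of 1.93 on the log2 scale, but Selfox 6 was closer to the low livers than to the other high ones, and 2 low livers, Selfox 1 and Selfox 9, lay above the highest Control (73.5 CPM).

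Ripk2, the kinase that relays signals from the NOD receptors for bacterial wall fragments, had the second largest difference of the list, at 3.41. It reached 426.8 CPM in Selfox 8, 152.6 in Selfox 3 and 150.8 in Selfox 5, then 59.6 in Selfox 4, 28.1 in Selfox 6 and 10.7 in Selfox 10. The low livers lay between 6.10 and 7.78 CPM and the Control livers between 7.31 and 9.75. Selfox 10 was thus barely above the highest Control for Ripk2, although its Nfkbia was among the highest.

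Other members encode further brakes and relays of the pathway. The nuclear inhibitor homologue Nfkbiz differed by 2.71, the early response gene Ier3 by 2.64, the kinase gene Map3k8 by 2.41, the ubiquitin ligase gene Birc3 by 2.33 and Bcl3, a coactivator related to the inhibitors, by 2.15. The subunit genes Relb, Nfkb2 and Rel were apart, at 1.77, 1.69 and 1.34. The subunit genes Nfkb1 (0.74) and Rela (0.54) were not apart by the rule. The ubiquitin-editing partners Otulin (0.08) and Cyld (0.05) were close to the median gene.

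**Figure D3:**
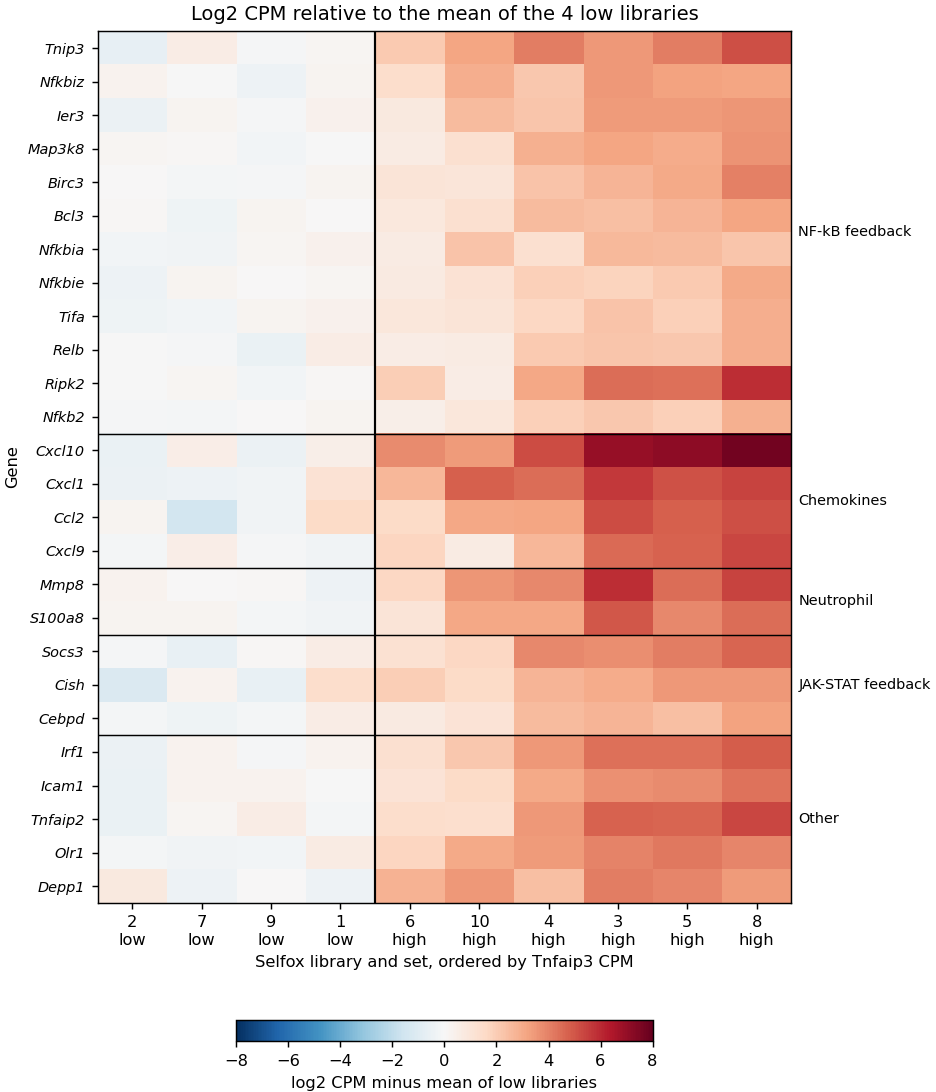
Log2 CPM of 26 genes apart and higher in the high livers, minus the mean of the 4 low libraries, in the 10 Selfox libraries ordered by Tnfaip3. Selfox 3, 5 and 8 are darkest in most genes, and Selfox 6 and 10 lie between them and the low livers.

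Chemokines, the secreted proteins that steer leukocytes, had 10 of 24 measured members apart and higher, against 0.882% of all genes. Their median difference was 0.64, and 0 were apart and lower, near the share of all genes (0.252%). Cxcl10, which attracts T and NK cells, had the largest difference of any gene, 5.71 on the log2 scale. Its level was 1054 CPM in Selfox 8, 708.6 in Selfox 5, 622.3 in Selfox 3, 181.3 in Selfox 4, 66.4 in Selfox 6 and 51.99 in Selfox 10. The low livers lay between 3.41 and 7.01 CPM, inside the Control range of 1.59 to 11.8 CPM.

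Cxcl1, a neutrophil attractant, lay at 668.4 CPM in Selfox 3, 552.3 in Selfox 8, 460.4 in Selfox 5, 357.0 in Selfox 10, 289.7 in Selfox 4 and 85.2 in Selfox 6. The low livers lay at 29.8 CPM (Selfox 1), 10.9 (Selfox 9), 10.1 (Selfox 7) and 9.33 (Selfox 2). Control libraries reached 85.9 CPM and LPS libraries 123.8 CPM, so Selfox 6 was not above every untreated liver for this gene.

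Ccl2, the attractant of monocytes, lay at 98.1 CPM in Selfox 3, 93.2 in Selfox 8, 69.9 in Selfox 5, 23.1 in Selfox 4, 21.8 in Selfox 10 and 7.59 in Selfox 6. The low livers lay at 7.40 CPM (Selfox 1), 3.02 (Selfox 2), 2.08 (Selfox 9) and 0.923 (Selfox 7), so Selfox 6 and Selfox 1 were almost equal. Control livers ranged from 0.154 to 1.13 CPM, and 3 of the 4 low livers were above all of them. Ccl7 (3.56), Cxcl9 (3.27), Ccl4 (2.95) and Ccl3 (2.31) were also apart.

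Of 31 measured genes of inflammatory cytokines and their receptors, 7 were apart and higher, against 0.882% of all genes (median of the list 0.82). Apart and lower were 0, near the share of all genes (0.252%). Il6, the cytokine that drives the acute phase response, differed by 3.95, with 1.02 to 9.39 CPM in the high livers and 0.175 to 0.331 CPM in the low. The decoy receptor gene Il1r2 differed by 3.35 and Il1b by 2.39. Il1b lay at 158.0 CPM in Selfox 5, 129.1 in Selfox 3, 119.7 in Selfox 10, 118.7 in Selfox 8, 81.1 in Selfox 4 and 43.0 in Selfox 6, against 8.86 to 30.6 CPM in the low livers. Control 40 reached 68.2 CPM, above Selfox 6. Tnf itself was below the filter on low counts, with 2 counts in 1 of the 6 high libraries and 0 in the other 22 libraries.

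Genes that respond to cytokines also had members apart, where 0.882% of all genes were apart and higher. Of 20 JAK-STAT feedback genes and STAT3 targets, 6 were apart and higher, among them the signalling brake Socs3 (3.21) and Cish (2.7). Of 49 interferon-stimulated genes, 6 were apart, led by the transcription factor gene Irf1 at 3.42, which lay at 43.1 to 515.2 CPM in the high livers and 13.3 to 21.8 CPM in the low. The median of that list was 0.35, and its members included Oasl (2.28), Gbp5 (2.13) and Gbp2 (1.64). Against the Control mean, the list median was -0.002 log2 in the median high liver and -0.39 in the median low liver. In Selfox with Control 3 of the 49 were called higher (14.2% of all genes) and 11 lower (14.9% of all genes). Of 28 acute phase genes, 2 were apart, Socs3 and Il1rn, which other lists also hold.

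Adhesion and endothelial activation genes had 5 of 22 members apart and higher, against 0.882% of all genes, and 3 without Selfox 3. Icam1, the endothelial ligand of leukocyte integrins, lay at 569.5 CPM in Selfox 8, 394.7 in Selfox 5, 365.7 in Selfox 3, 232.3 in Selfox 4, 83.1 in Selfox 10 and 60.7 in Selfox 6, against 19.8 to 34.9 CPM in the low livers. Sele, the endothelial selectin, differed by 4.18 but was scarce, at 0.227 to 8.38 CPM in the high livers and 0 to 0.116 CPM in the low. In Control and LPS libraries it reached at most 0.0832 CPM. It passed the filter on low counts only through the high livers, so its place among the 5 is no separate result. Of 26 sinusoidal endothelial markers 0 were apart, which is near the share of all genes (0.882%), and their median difference was -0.24.

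Neutrophil and calprotectin markers had the highest list median, 2.21 on the log2 scale. Of 20 measured members 11 were apart and higher, against 0.882% of all genes, and 0 lower, near the share of all genes (0.252%). S100a8, a subunit of calprotectin, lay at 27.1 CPM in Selfox 3, 19.1 in Selfox 8, 12.4 in Selfox 5, 7.36 in Selfox 10, 7.23 in Selfox 4 and 1.76 in Selfox 6. The low livers lay between 0.669 and 0.988 CPM and the Control livers between 0.608 and 3.35, so Selfox 6 was inside the Control range. The collagenase gene Mmp8 differed by 4.13 and S100a9 by 3.02. With Selfox 1 counted as high, 1 of the 20 markers was apart, and with a minimum count of 50 in the filter 6 were.

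The summed level of the 20 neutrophil markers ranged from 23.5 to 186.6 CPM in the high livers and from 12.7 to 18.6 CPM in the low. It was 21.95 to 37.7 CPM in Control and 23.2 to 168.0 CPM in LPS, where LPS 5 held the highest value and the next was 47.1 CPM. In LPS 5, Lcn2, which the acute phase list also holds, made up 138.1 CPM of the sum. S100a8 there lay at 1.43 CPM and Mmp8 at 0.441 CPM. In the high livers Lcn2 reached 19.9 CPM, in Selfox 8. Mmp8, a protease of neutrophil granules, lay at 1.47 to 27.6 CPM in the high livers and 0.320 to 0.541 CPM in the low. A further 8 markers were below the filter on low counts. Of these the surface marker Cd177 had 29 counts over the 6 high libraries and Elane, the neutrophil elastase gene, 23, each in 5 of the 6, and both had 0 in the 4 low libraries. Mpo, Ctsg, Np4 and Prtn3 had 24, 12, 18 and 2 counts over the high and 14, 6, 2 and 4 over the low libraries, and Ltf and Cxcr1 had 0 counts in all 23 libraries. The part that neutrophil number had in the differences of chemokine and NF-kB genes was not tested.

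For markers of other cell types the counts were small or 0, and 0 is near what the shares of all genes (0.882% higher, 0.252% lower) give for lists of this length. Of 18 Kupffer cell, 31 T and NK cell, 12 B and plasma cell, 23 stellate cell and 15 cholangiocyte markers, 0 were apart in either direction. The same held for 8 erythroid and 7 platelet markers. Summed erythroid markers lay at 132.9 to 219.6 CPM in the high livers, 30.0 to 181.2 in the low and 124.4 to 287.4 in Control. The part that blood content had in the differences was not tested. Of 21 monocyte markers 1 was apart, Thbs1 (1.70), and of 16 dendritic cell markers 2 were, the costimulatory genes Cd40 (1.46) and Cd80 (1.44). The summed Kupffer cell markers lay at 557.5 to 727.1 CPM in the high livers and 556.8 to 736.0 CPM in the low, and both sets were below every Control (1128 to 1733 CPM).

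For hepatocyte programmes the counts were also near the shares of all genes, and nothing particular to them is read from a count of 0. The count apart was 0 of 27 hepatocyte factors and secreted proteins, 0 of 28 drug-metabolizing cytochromes P450, 0 of 24 bile acid genes, 0 of 20 lipogenesis genes and 0 of 30 fatty acid oxidation genes. The cholesterol synthesis list had the lowest median, -0.33, with 24 of 25 members lower in the high livers, though 0 were apart. Over all genes 7408 of 15078 differences were positive. Members of a list were not shown to vary independently, so their number is no count of separate results. Among circadian clock genes 1 of 19 was apart, Ciart, lower by 1.22 on the log2 scale, where 0.252% of all genes were apart and lower. It was scarce, at 0.15 to 0.32 CPM in the high livers and 0.34 to 0.81 CPM in the low, so the sets almost met.

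**Figure D4:**
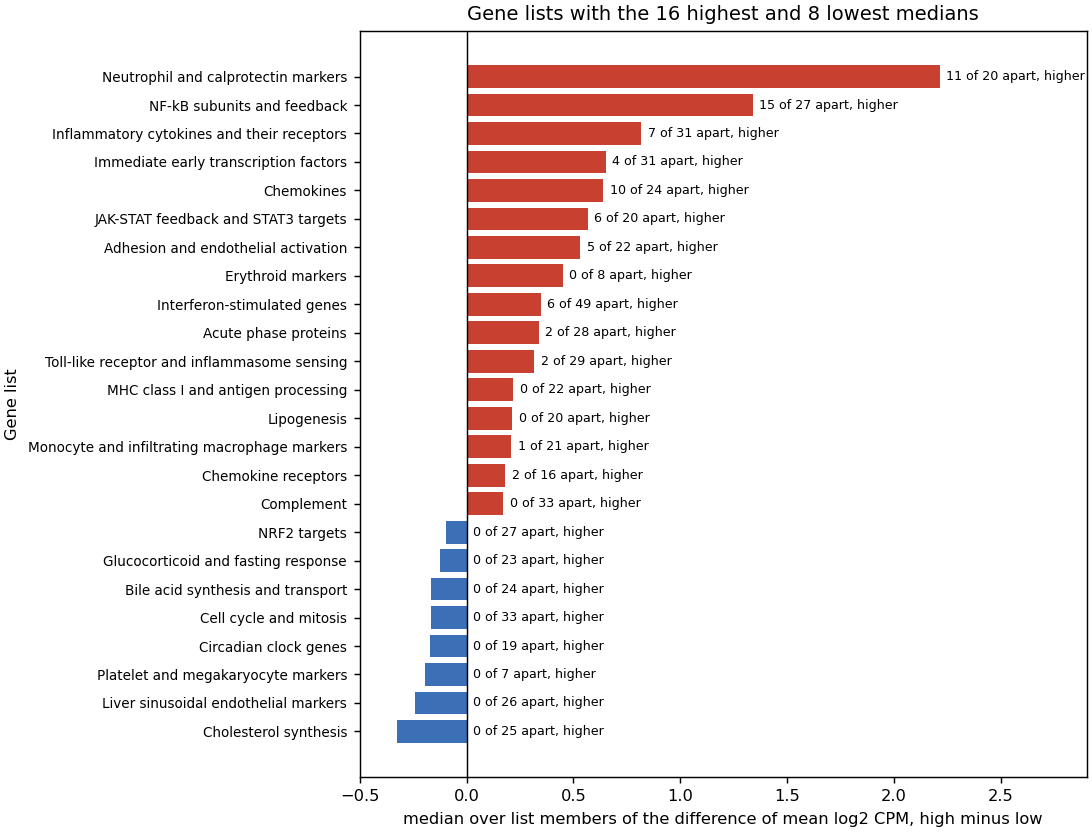
Median difference of mean log2 CPM, high minus low, over the members of the 16 gene lists with the highest and the 8 with the lowest medians; text gives the members apart and higher. Neutrophil markers (2.21) and NF-kB genes (1.34) have the longest bars, and cholesterol synthesis (-0.33) the lowest.

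Among genes with a mean of at least 1 log2 CPM, Cxcl10 and Cxcl1 had the largest differences, Cxcl1 at 4.68. Tnfaip2 (3.5), the oxidized LDL receptor gene Olr1 (3.37) and Depp1 (3.34), a target of FOXO factors, were also in this group. Depp1 ranked its livers differently from Tnfaip3, with Selfox 6 at 130.9 CPM above Selfox 4 at 99.5 CPM. Of the 38 lower genes only 4 reached that mean level. They were Fzd7, a Wnt receptor gene (-1.45), Csmd1 (-1.15), and RGD1559575 (-1.41) and AABR07021930.1 (-1.08), whose functions are not given here.

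Csmd1 had a pattern unlike the higher genes. It lay at 31.8 to 57.8 CPM in the low livers and 16.7 to 29.4 CPM in the high, and both sets were above every Control (3.33 to 12.1 CPM). Across the lower genes the mean of the low livers was inside the Control range for 19 of 38 and above every Control for 16. Across the 133 higher genes it was inside the Control range for 90, above it for 13 and below it for 30. For 65 of the 133 all 6 high livers lay above every Control, and for 46 they lay above every Control and every LPS library. Shares over all genes were not computed for these counts. The 133 were chosen as high in the same 6 livers, so part of their excess over Control is built in. The rule also chose the 133 as low, and the 38 as high, in the low livers. The place of the low mean against Control is thus partly built in too, and no conclusion is drawn from these counts.

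The high livers were not alike. Over the 133 higher genes the median level above the mean of the low livers was 2.66 on the log2 scale in Selfox 8, 2.29 in Selfox 5, 2.23 in Selfox 3, 1.88 in Selfox 4, 1.31 in Selfox 10 and 0.859 in Selfox 6, which is the order of Tnfaip3 itself. Selfox 6 was the lowest high liver for 96 of the 133 genes and Selfox 10 for 27, while Selfox 8 was the highest of all 10 for 78. On the first principal component of the 10 Selfox libraries, which held 31.7% of the variance, Selfox 3, 4, 5 and 8 lay at 25.7 to 43.4. Selfox 10 and Selfox 6 lay at -9.94 and -11.0, and the low livers at -34.0 to -24.7.

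Selfox 10 and Selfox 6 were compared with the mean of Selfox 3, 4, 5 and 8, and some genes were lower in both. The difference on the log2 scale was -3.86 in Selfox 10 and -2.47 in Selfox 6 for Ripk2, -3.62 and -2.58 for Cxcl9, and -3.37 and -3.02 for Cxcl10. In 3 other genes the pair differed: Selfox 10 was at or above that mean, by 0.13 in Nfkbia, 0.02 in Il1b and 0.34 in Il6, while Selfox 6 was below it, at -1.48, -1.46 and -2.13.

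Whether the same genes followed Tnfaip3 elsewhere was tested in the 13 Control and LPS libraries, which had no part in the split. For each gene a slope on log2 CPM of Tnfaip3 was fitted with the group as a covariate. By edgeR's quasi-likelihood test with Benjamini-Hochberg adjustment 0 of 15078 genes passed (lowest adjusted p = 0.192), with 467 genes at an unadjusted p under 0.05, where limma voom called 0 and DESeq2 16. At the unadjusted level 1.68% of all genes had a positive and 1.42% a negative slope.

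Of the 133 genes apart and higher in Selfox, 111 (83.5%) had a positive slope in these 13 livers, against 50.1% of all genes. An unadjusted p under 0.05 with a positive slope was reached by 27 of them (20.3%, against 1.68% of all genes), and 1 had a negative slope at that level. Their median slope was 0.40 log2 per log2 of Tnfaip3, against 0.0003 over all genes. Of the 38 lower genes 18 had a negative slope and 0 reached an unadjusted p under 0.05.

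Positive slopes at an unadjusted p under 0.05 were more frequent among the 133 than among all genes in Control alone, but not in LPS alone. The difference between these groups was not tested. In the 6 Control libraries alone 85.7% of the 133 genes had a positive slope and 35 reached that level, against 1.75% of all genes. Control 40 and Control 46, highest in Tnfaip3, were also highest in Il1b (68.2 and 40.9 CPM, the others 4.64 to 14.5). Control 40 was the deepest Control library, at 53.8 M counts. The 133 genes were not shown to vary independently, so a share of them is no count of separate results. In the 7 LPS libraries alone, where Tnfaip3 spanned only 15.1 to 19.3 CPM, 33.1% had a positive slope and 4 reached that level, against 4.85% of all genes.

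**Figure D5:**
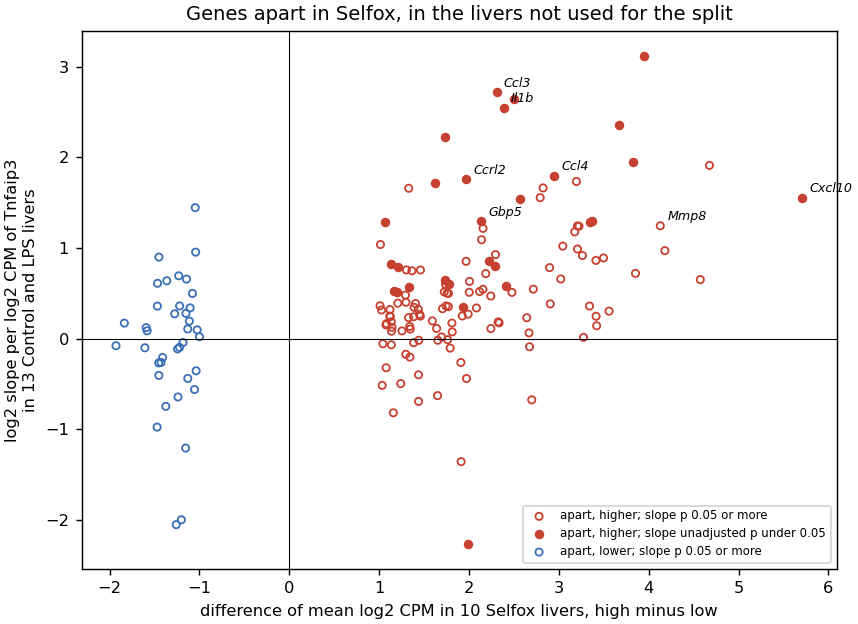
For the 171 genes apart in Selfox, the log2 slope on log2 CPM of Tnfaip3 in the 13 Control and LPS livers (vertical axis) against the difference of mean log2 CPM, high minus low, in the 10 Selfox livers (horizontal axis). Filled points have an unadjusted slope p under 0.05, and 111 of the 133 red points lie above 0.

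The genes apart with the lowest slope p-values were Gbp5 (slope 1.30 ± 0.23 SE), Ccl3 (2.72 ± 0.50), Ccl4 (1.80 ± 0.36), the chemerin receptor gene Ccrl2 (1.76), Arl5c (1.72) and Il1b (2.55 ± 0.50), named after their values were seen. None passed the adjusted threshold (edgeR, Benjamini-Hochberg adjusted p = 0.252 for Gbp5 and 0.346 for Il1b). In Control, Gbp5 lay at 10.8 and 10.6 CPM in Control 40 and 46, the libraries with most Tnfaip3 (14.0 and 17.9 CPM), and at 2.95 to 4.49 CPM in the other 4. By list, 8 of 49 interferon-stimulated genes, 7 of 24 chemokines, 7 of 31 cytokine genes, 5 of 27 NF-kB genes and 3 of 16 chemokine receptors reached an unadjusted p under 0.05 with a positive slope, against 1.68% of all genes. Of 20 neutrophil markers 0 did, though 17 of the 20 slopes were positive, against 50.1% of all genes. Their median slope was 0.49, against a median of 0.25 for the NF-kB genes.

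The comparison by label, all 10 Selfox with the 6 Control libraries, shares the Selfox libraries with the split and is not independent of it. By edgeR's quasi-likelihood test with Benjamini-Hochberg adjustment it called 76 of the 133 higher genes higher in Selfox (57.1%, against 14.2% of all genes) and 0 lower (14.9% of all genes). Of the 38 genes lower in the high livers, 3 were called lower and 6 higher. With limma voom 26 of the 133 were called higher, against 76 with edgeR. The share of all genes called higher with limma voom is not given here. The excess of the 133 over all genes is therefore shown for edgeR only, and most of its calls were lost with limma voom. Tnfaip3 rose by 4.06 ± 0.81 log2 (adjusted p = 0.000846), Ccl2 by 6.13 ± 1.12 (adjusted p = 0.000414) and Cxcl10 by 5.68 ± 1.30 (adjusted p = 0.00267). These edgeR changes are of fitted mean counts, in which the highest libraries weigh most. They are not the differences of mean log2 CPM used between the sets. Over 29 alternatives, limma voom among them, the change was 3.008 to 4.273 for Tnfaip3, 5.116 to 6.719 for Ccl2 and 3.683 to 6.105 for Cxcl10. With limma voom the call of Tnfaip3 held (adjusted p = 0.0145), and those of Ccl2 (adjusted p = 0.156) and Cxcl10 (adjusted p = 0.117) were lost.

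S100a8 rose by 2.47 ± 0.79 in the same comparison (edgeR adjusted p = 0.0225), a call lost without Control 52, with the Selfox and Control libraries fitted alone, and with limma voom (adjusted p = 0.332). Socs3, at 1.61 ± 0.76, did not pass (edgeR adjusted p = 0.118), nor did Cish (0.74 ± 0.62, adjusted p = 0.401), although both were apart between the high and low livers. In Socs3 the low livers lay at 6.49 CPM (Selfox 1), 4.50 (Selfox 9), 4.04 (Selfox 2) and 2.87 (Selfox 7), so 3 of the 4 were below every Control (4.53 to 26.1 CPM).

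Motifs were counted in RefSeq windows of 300 bases, from 250 before to 50 after the start, on both strands, and 100 of the 133 higher genes and 19 of the 38 lower genes had a window. The narrow kB motif was found in 17 of the 100 (17%), against 1.87% of 10306 genes with a window, and the wide motif in 26 (26%, against 6.93%). Higher genes with a wide match included Cxcl1, Cxcl2, Cxcl10, Il6, Nfkbia, Nfkbiz, Nfkb2, Rel and Map3k8. Of the 19 lower genes 0 held the narrow and 1 the wide motif.

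The AP-1 motif TGANTCA was found in 18 of the 100 higher genes (18%, against 5.53%), and the interferon-response motif, GAAA, then 2 bases of any kind, then GAAA, in 8 (8%, against 3.27%). Icam1, Irf1, Cxcl9, Tnfaip2, Il1b and Socs3 had no kB match in their windows. A match describes letters in a window, not binding.

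Depth did not separate the sets. Totals were 67.3 M to 74.8 M counts in the high and 65.1 M to 74.6 M in the low libraries, against 31.9 M to 53.8 M in Control and 70.4 M to 79.2 M in LPS. Albumin took 7.74% to 9.99% of counts in the high and 9.08% to 11.1% in the low livers, and mitochondrial genes 5.78% to 7.07% and 6.14% to 6.62%. The clock difference of Dbp minus Arntl, 2 genes that peak at opposite times of day, was 0.004 log2 CPM in Selfox 8 and -1.70 in Selfox 5 but -4.42 or below in the other 8 Selfox livers. Leaving out Selfox 5 and Selfox 8, a choice made after seeing the data, gave 120 higher and 44 lower genes apart. With fewer libraries the rule of no overlap is easier to meet, and the part of clock phase in the differences was not tested.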

How the data were processed

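The deposited table holds read counts per gene for 23 rat liver libraries, in 28913 rows. Per the submitters' processing notes, the tools behind the authors' table were FastQC, Trim Galore, STAR (2.7.9a) for alignment and featureCounts (Subread 2.0.3) for counting. Build, annotation and strand setting of the counting were not given in the sources used here. Values of overlapping or antisense genes are therefore uncertain. Even values made up 66.9% to 74.1% of counts from 1 to 20 in each library, so both ends of a read pair may have been counted, and totals may exceed the number of fragments.

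Genes were kept by filterByExpr of edgeR (minimum count 10), which left 15079 of 21753 genes with any count. CPM used TMM factors over all 23 libraries (0.922 to 1.09), and log2 CPM a prior count of 2. High and low Selfox libraries were compared as a description without a test. For slopes on Tnfaip3, and for Selfox with Control (3 groups in 1 fit, biological coefficient of variation 0.235), edgeR's robust quasi-likelihood F test was used. P-values were adjusted after Benjamini and Hochberg, with 0.05 as threshold. An SE is the log2 change over the root of its F value, as a size. The count fits were tested on simulated data. No Selfox columns were identical (pairwise correlations of log2 CPM 0.969 to 0.987).

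The members, the 40 gene lists and the tests were chosen with earlier results of these data known. Named genes are the 4 markers, the 12 largest differences in each direction among genes apart whose mean was 1 log2 CPM or more, up to 4 members apart of each list (the 2 largest differences where none was apart), and NF-kB list members. S100a9, Ccl3, Ccl4, Cxcl2, Tnf, Cd177, Mpo, Elane, Ctsg, Np4, Prtn3, Ltf, Cxcr1, Arl5c, Ccrl2 and the genes listed with motif matches fall outside it and were chosen after their values were seen. Not every gene that the rule names is described, and 1 is not reported here. Alternatives covered scaling, filter, prior count, thinning, threshold of the split, left-out libraries, limma voom and DESeq2. Versions were edgeR 4.0.16, DESeq2 1.42.0 and limma 3.58.1, under R 4.3.3. Of 15079 genes tested, 12581 matched a symbol in RefSeq (GRCr8).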

Additional observations from a re-analysis of the deposited data

Results flagged for a closer look

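Of 90 groups of values looked at, 8 held a library that stood apart from the rest of its group by Dixon's criterion at the 95% level, which chance alone meets in about 1 group in 20. Among the high livers Selfox 8 had the smallest total, 67.35 M counts, with the next at 72.48 M. Among the low livers Selfox 1 was highest in Cxcl1 (4.90 log2 CPM, the next at 3.45) and in Olr1 (1.41, the next at 0.62), and it also had the highest Tnfaip3 of that set.

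Among Control livers, Control 55 was lowest in Irf1 (3.32 log2 CPM) and highest in the difference of Dbp and Arntl (2.50). Control 46 was highest in Ripk2 (3.29) and Control 41 in Cxcl9 (4.91). Among LPS livers, LPS 6 was lowest in Irf1 (2.95 log2 CPM, the next at 4.22). No cause was tested.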

How the results depend on the processing

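Differences of 128 named genes between the high and low livers were computed under 22 settings, and of 2797 values 6 moved by more than the spread between libraries. Reversals were counted only for Tnfaip3 and genes apart. Their complete separation leaves almost no room for a reversal, so the count of 0 says little. The 133 higher genes became 63 with Selfox 1 counted as high (40 of them among the 133), 209 with a difference of at least 0.5, and 339 without Selfox 6 and Selfox 10 (129 of the 133 among them). Leaving out each library in turn gave 121 to 221, the highest without Selfox 6. The 38 lower genes became 15 with a minimum count of 50, 24 with Selfox 6 counted as low, 117 with a difference of at least 0.5 and 170 without Selfox 6 and Selfox 10. Leaving out each library gave 39 to 76, with 62 without Selfox 1, 67 without Selfox 2, 59 without Selfox 7 and 76 without Selfox 10. Leaving out Selfox 6 and Selfox 10 together was added after seeing the data. Without Selfox 8 the count of higher genes fell to 121. With fewer libraries the rule of no overlap is easier to meet, so a rise in a count does not by itself mark the library left out. Any further cause of these changes was not tested.

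Genes called for a slope numbered 0, 2 without the group term, 2 without the 4 Control and LPS libraries in which Dbp exceeded Arntl, and 16 with DESeq2. Of the 133 higher genes, 27 had a positive slope at an unadjusted p under 0.05, 4 in LPS alone, and 23 to 32 with each library left out. The share with a positive slope was 83.5%, 33.1% in LPS alone and 69.2% to 86.5% with each library left out. In LPS alone slopes reversed for Arl5c (-0.39), Ccl3 (-0.54), Ccrl2 (-0.84), Il1b (-1.12), LOC681325 (-3.05) and Tnip3 (-0.68), and without the group term for Rassf4 (-0.16). The higher genes also called higher in Selfox numbered 76, 26 with limma voom and 64 to 82 with each library left out. Causes were not tested here either.

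No paired analysis was possible because the split of the Selfox livers has no test, Control shares no replicate numbers with LPS or Selfox, and LPS and Selfox, which share numbers, were not compared. The 6 high livers set the precision of each high mean, and genes with few counts, such as Sele and Il6, rest on little depth.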
